A study of Mus musculus with 4 samples.

Results

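Thoracic sympathetic ganglia (SG) of levels T1–T4 from WT mice were sequenced in 2 separate pools, here called WT pool 1 and WT pool 2, and the genes of these 2 pools were compared with each other. They are 2 of the 4 samples of the study and were chosen by their genotype label alone. Each was RNA from the ganglia of 6 C57BL/6 mice, 12 weeks old and kept for 1 day at 5 °C. The other 2 samples, used mainly at the end, were 1 pool from TRKC+/- mice, with 1 disrupted copy of the gene for the neurotrophin-3 (NT-3) receptor TRKC in all cells, and 1 pool from AdNTF3-Tg mice, in which the adiponectin promoter drives NT-3 in adipocytes. All 4 pools shared strain, age and cold exposure. The names of the deposited tables set WT pool 1 beside TRKC+/- and WT pool 2 beside AdNTF3-Tg, and the labels give no dissection date, litter or sex. *Ntrk3*, the gene of TRKC, had 91 reads (2.72 FPKM, fragments per kilobase of transcript scaled to depth) in the pool labelled TRKC+/- and 76 in AdNTF3-Tg, against 78 and 83 in the WT pools, so its count was not lower in the pool labelled TRKC+/-. The counts cover the whole gene, and whether they include reads of the disrupted copy was not tested.

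Of 17667 genes listed in the 4 pools, 17124 were listed in at least 1 WT pool and 15798 in both. The reads on genes summed to 8665955 in WT pool 1 and 8847743 in WT pool 2, and to between 8665955 and 8894985 over the 4 pools. The 13718 genes with at least 20 reads over the WT pools were compared. With 1 pool per side there was no replicate and no p-value. A gene was said to differ where its log2 ratio of FPKM, after adding 0.1 to each, was at least 0.5 in size and the exact 95% counting interval of its log2 ratio of reads did not include 0. Such an interval covers counting error only, not the spread between mice or dissections. Ratios are WT pool 1 over WT pool 2 throughout, and a positive log2 ratio means a higher level in WT pool 1.

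Sympathetic ganglia along the thoracic spine hold noradrenergic neurons that drive heat production in brown fat, each wrapped by satellite glia, among Schwann cells, blood vessels, macrophages and a connective tissue sheath. The neurons make noradrenaline from tyrosine through tyrosine hydroxylase, aromatic amino acid decarboxylase and dopamine beta-hydroxylase, and load it into vesicles. A minority of sympathetic neurons use acetylcholine instead. The ganglia lie against ribs, intercostal muscle, vessels and fat, so that RNA of those tissues can enter a dissection.

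Genes of the neuronal programme were close in level in both pools. *Th*, tyrosine hydroxylase, had 39724 reads (2680 FPKM) in WT pool 1 and 39365 reads (2631 FPKM) in WT pool 2, a log2 ratio of 0.03 (interval 0.02 to 0.06). *Dbh*, dopamine beta-hydroxylase, had 41750 and 41189 reads, and *Slc6a2*, the noradrenaline transporter, had 34919 and 37147 reads. In reads per total, WT pool 1 had from 0.96 to 1.03 times the level of WT pool 2 for these genes. Of the sympathetic neuron list, 28 of 29 genes were tested and 0 differed (against 3.32% and 2.10% of all genes tested that were higher in WT pool 1 and in WT pool 2), with a median log2 ratio of -0.02 and a range of -0.28 to 0.13. The member farthest from 0 was *Slc18a2*, the vesicular monoamine transporter, with 12556 reads in WT pool 1 and 15500 in WT pool 2 (-0.28, interval -0.31 to -0.24). The transcription factors of the lineage were also near equal, with 4435 and 4528 reads for *Hand2* and 2055 and 2069 reads for *Phox2a*.

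The 15 genes of highest mean FPKM were near equal in both pools as well. *Gnas*, the stimulatory G protein subunit, led with 3492 and 3528 FPKM, followed by the tubulin gene *Tuba1a* with 3152 and 3197 FPKM. *Npy*, the neuropeptide stored with noradrenaline, had 2733 and 2501 FPKM. Of the 100 genes of highest FPKM in each pool, 93 were the same. Across the 13718 genes, Pearson's r of log2 FPKM was 0.986 and the rank correlation of Spearman 0.990. That is a description of these 2 samples, since genes are not independent replicates and both pools came from the same tissue, protocol and depth.

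Other lists without a member that differed, which in lists this short is near the share over all genes (3.32% higher in WT pool 1 and 2.10% in WT pool 2), included the synaptic vesicle list (0 of 25 tested genes, median 0.04), the endothelial list (0 of 20, median -0.07), antigen presentation (0 of 16, median -0.12), heat and cold shock genes (0 of 20, median 0.00), glycolysis and hypoxia genes (0 of 21, median 0.01) and cholesterol synthesis (0 of 19, median -0.04). Respiratory chain genes and ribosomal protein genes had no member that differed among 46 and 59 tested, although both medians were 0.10. The neurotrophin receptor *Ngfr* was close in level (9225 and 10664 reads) as was *Ntrk3* (log2 ratio -0.04). Y-linked *Eif2s3y* had 315 and 322 reads, and *Xist*, transcribed from the inactive X chromosome of females, had 2 and 1 reads, so both WT pools held RNA of males. The *Hox* genes that mark position along the body axis were near equal for *Hoxc4* (271 and 297 reads) and *Hoxc6* (135 and 148 reads), while *Hoxb8* had 3 and 18 reads and *Hoxd9* had 30 and 14.

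Brown fat genes, which could mark fat attached to the ganglia, were detected in both pools and had a median log2 ratio of 0.00. *Ucp1*, the uncoupling protein of brown adipocytes, had 655 and 672 reads (log2 ratio -0.02, interval -0.16 to 0.15). *Cidea*, a lipid droplet protein, had 525 and 447 reads (0.24, interval 0.08 to 0.45), which is short of the rule. Of 17 brown fat genes tested (against 3.32% and 2.10% of all genes higher in WT pool 1 and in WT pool 2), 1 was higher in WT pool 1 (*Otop1*, a proton channel gene, 28 and 13 reads, short of the rule with a pseudocount of 1) and 1 was higher in WT pool 2 (*Slc27a2*, a fatty acid transporter gene, 14 and 29 reads). Of 21 T cell genes 2 had enough reads to be tested, *Cd247* (54 and 54) and *Tcf7* (37 and 32), while the receptor gene *Cd3e* was not listed in either WT pool. Of 13 lung epithelial genes 2 were tested, *Cdh1* (116 and 96 reads), which other epithelia also make, and *Ager* (19 and 15), while the surfactant gene *Sftpb* had 0 and 2 reads. None of these 4 tested genes differed by the rule.

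A total of 455 genes were higher in WT pool 1, which is 3.32% of those tested, and 288 were higher in WT pool 2, which is 2.10%. By fold alone, with no condition on the interval, these were 731 (5.33%) and 534 (3.89%). The ratio was at least 1 on the log2 scale for 154 and 73 of the genes that differed. Differences were mostly among genes of low level. Of 1722 genes whose mean level reached 50 FPKM, 11 differed (0.639%), against 513 of 4521 genes (11.3%) whose mean was under 5 FPKM. The median absolute log2 ratio over all genes tested was 0.134, the median of the signed ratios was 0.007, and 72.4% of genes lay within 0.25 of 0.

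**Figure D1:**
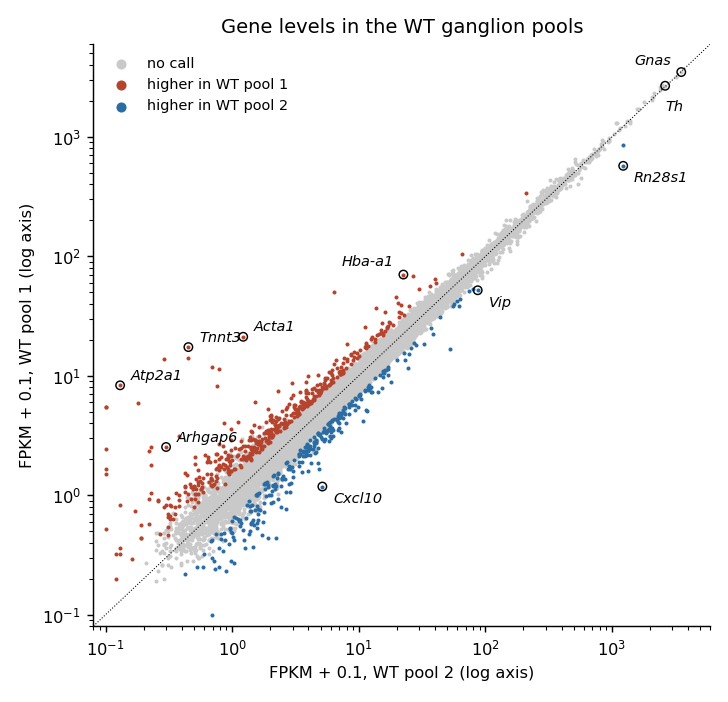
Level of the 13718 genes tested in the WT pools, as FPKM + 0.1 on log axes, WT pool 1 against WT pool 2, with 1 point per gene and the dotted line at equal levels. The neuronal gene *Th* and the G protein gene *Gnas* sit on the line at the top, while fast muscle genes such as *Acta1* and *Atp2a1* lie far above it and *Cxcl10* below it.

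Genes of fast skeletal muscle made the widest gap between the pools. Fast fibres contract through their own myosin heavy chains and troponin subunits, pump calcium with the enzyme encoded by *Atp2a1* and buffer energy with creatine kinase. Of 24 fast muscle genes tested, 22 were higher in WT pool 1 (91.7%, against 3.32% of all genes tested) and 0 were higher in WT pool 2, with a median log2 ratio of 2.82. The list was chosen with this difference known from earlier results of these data, so its count is a description. The summed FPKM of the list was 168.0 in WT pool 1 and 33.1 in WT pool 2. *Myl1*, a myosin light chain, alone gave 33.4 and 21.4 FPKM of these sums. The median depended on the settings, at 1.37 with a pseudocount of 1, 1.86 with no filter on reads and 4.10 with at least 100 reads. With a pseudocount of 1, 5 of the 22 fell short of the rule, *Neb* (0.29), *Ryr1* (0.30), *Ttn* (0.11), *Cmya5* (0.26) and *Xirp2* (0.24), all of low FPKM.

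*Acta1*, skeletal muscle alpha actin, had 262 reads (21.1 FPKM) in WT pool 1 and 14 reads (1.12 FPKM) in WT pool 2, a log2 ratio of 4.12 (interval 3.48 to 5.15). *Ckm*, the muscle creatine kinase, had 138 and 7 reads, a log2 ratio of 4.09 (interval 3.25 to 5.67). *Myh4*, a fast myosin heavy chain, had 300 and 4 reads, a log2 ratio of 5.02 (interval 4.89 to 8.14). All of these transcripts were detected in WT pool 2, at 4 to 14 reads. *Atp2a1*, the calcium pump, had 245 reads and 1 read (log2 ratio 6.00, interval 5.48 to 13.28). *Tnnt3*, fast troponin T, had 149 and 3 reads (5.27, interval 4.09 to 7.96), *Tnnc2*, fast troponin C, had 80 and 2 reads (4.98, interval 3.45 to 8.42), and *Tnni2*, fast troponin I, had 73 reads and 1 read (5.57, interval 3.70 to 11.54). With 1 to 3 reads in WT pool 2, the upper ends of these intervals are far from the ratios themselves. *Myh1*, another fast myosin heavy chain, had 122.8 and 0 reads, which against the floor of 3 reads is at least 41.8-fold higher in WT pool 1. *Casq1*, the calsequestrin of fast fibres, had 22 and 0 reads, which is at least 7.49-fold higher. *Pvalb*, the calcium buffer parvalbumin, which fast fibres and some sensory neurons make, had 40 and 0 reads, at least 13.6-fold higher.

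The muscle genes did not all differ by the same factor. *Actn3*, fast alpha-actinin, had 86 and 22 reads (log2 ratio 1.87, interval 1.31 to 2.74), and *Pygm*, muscle glycogen phosphorylase, had 97 and 19 reads (2.24, interval 1.66 to 3.17). *Eno3*, the muscle enolase, had 94 and 48 reads (0.95, interval 0.48 to 1.53), and *Myl1* had 248 and 172 reads (0.63, interval 0.27 to 0.85). For these genes WT pool 2 held from 19 to 172 reads, against at most 3 for the calcium pump and the fast troponins named above. *Actn2*, the alpha-actinin of all fibres and of heart, had 20 reads in each pool. Of 3 slow muscle genes tested, 0 differed, with 48 and 64 reads for *Tnnc1*, slow troponin C, and 33 and 27 for *Tnni1*, slow troponin I. Over all genes tested 3.32% were higher in WT pool 1 and 2.10% in WT pool 2, so 0 of 3 is near that share. *Chrna1*, the muscle acetylcholine receptor subunit, had 136 and 79.9 reads (0.77, interval 0.39 to 1.21), whereas *Musk*, the kinase of the muscle endplate, had 5 and 6.

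Of the 20 genes higher in WT pool 1 with the largest ratios, among those that reached 1 FPKM on average and 50 reads, 12 were in the fast muscle list. The E-box CAGCTG is bound by the MyoD family of muscle transcription factors, and it was looked for in the 250 bases before the start of each gene (RefSeq, GRCm38.p6), where the motif reads the same on both strands. It was found for 10 of the 19 fast muscle genes tested that had a promoter in the table (52.6%) and for 1579 of 10859 genes tested (14.5%). Among all genes higher in WT pool 1 it was found for 64 of 338 (18.9%), of which 9 were fast muscle genes. The fast muscle list holds genes of the kind this motif is known from, so its share is not a finding about the pools. A match is a description of the letters and not a bound site. The stretches around the match are shown for 4 of the 9 differing muscle genes that had one, picked as examples after their values were seen, with the E-box in capitals.
Acta1, chr8:123894936-123895025, minus strand: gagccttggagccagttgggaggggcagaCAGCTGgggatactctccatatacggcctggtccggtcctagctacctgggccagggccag
Ckm, chr7:19410844-19410933, plus strand: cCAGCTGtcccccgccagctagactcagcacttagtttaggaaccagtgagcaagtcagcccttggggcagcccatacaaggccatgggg
Myh4, chr11:67237703-67237792, plus strand: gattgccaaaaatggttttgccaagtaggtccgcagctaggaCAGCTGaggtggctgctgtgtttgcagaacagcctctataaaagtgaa
Mylpf, chr7:127211515-127211604, plus strand: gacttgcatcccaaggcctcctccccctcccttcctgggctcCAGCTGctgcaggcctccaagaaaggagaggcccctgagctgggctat
The gene *Mylpf*, a fast myosin light chain, had 50 and 4 reads (log2 ratio 3.45, interval 2.23 to 5.6).

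**Figure D2:**
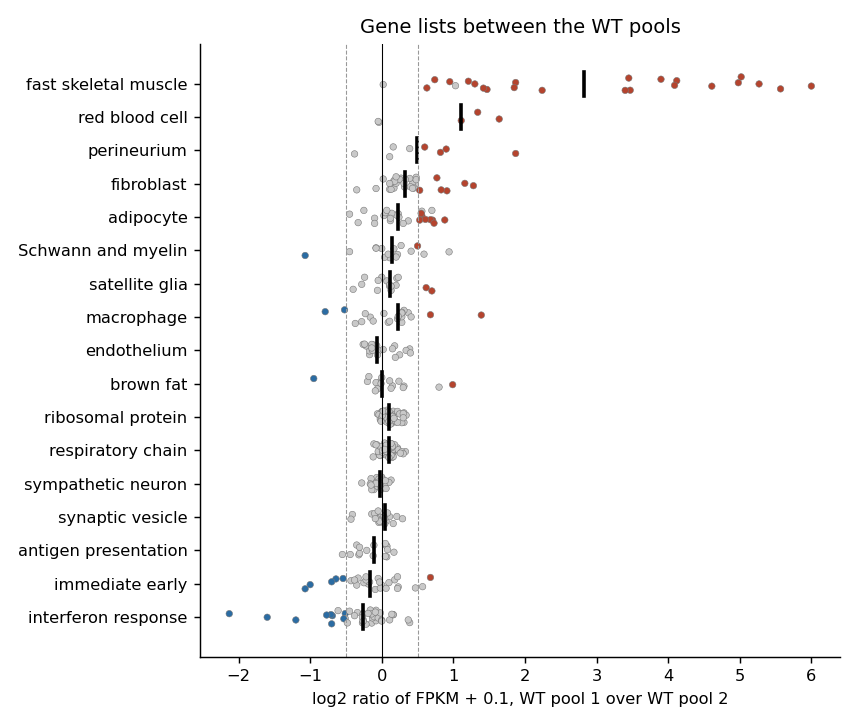
Log2 ratio of each tested gene of 17 lists, WT pool 1 over WT pool 2, with 1 point per gene, a black bar at each list's median, dashed lines at 0.5 either side of 0, and red and blue points for genes higher in WT pool 1 and WT pool 2. Fast muscle stands alone at a median of 2.82, and the sympathetic neuron list is tight around -0.02.

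Of 5 red blood cell genes tested, 3 globin genes were higher in WT pool 1 (60%, against 3.32% of all genes tested), 0 were higher in WT pool 2, and the other 2 had ratios just below 0. The list median was 1.11, and -0.04 with no filter on reads. *Hba-a1*, an alpha globin, had 316 reads in WT pool 1 and 99.2 in WT pool 2 (log2 ratio 1.64, interval 1.37 to 2.05). *Hbb-bs*, a beta globin, had 345 and 135 reads (1.34, interval 1.09 to 1.68). *Hba-a2*, the second alpha globin gene, had 159 and 72.8 reads (1.11, interval 0.74 to 1.57), and *Hbb-b1*, an adult beta globin, had 40.5 and 41.2 reads. The globin copies are near identical, so the division of reads among them is uncertain. *Alas2*, the haem synthesis enzyme of maturing red cells, had 3 and 4 reads, and *Slc4a1*, a gene of the red cell membrane, had 2 and 0 reads.

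Sheath and connective tissue genes were also somewhat higher in WT pool 1, without the size of the muscle gap. Of 31 fibroblast genes tested, 6 were higher in WT pool 1 (19.4%, against 3.32% of all genes tested) and 0 higher in WT pool 2, with a median of 0.32. *Thbs4*, an extracellular thrombospondin of tendon, muscle and nerve, had 1458 and 828 reads (log2 ratio 0.83, interval 0.72 to 0.97). *Col6a1*, a collagen VI chain, had 314 and 185 reads (0.77, interval 0.53 to 1.06). The 2 most abundant members fell short of the rule, with 6307 and 5373 reads for *Sparc*, a matrix-binding protein, and 3079 and 2259 reads for the proteoglycan *Dcn* (log2 ratios 0.25 and 0.45). In a bulk sample, fewer cells of a type and less RNA per cell cannot be told apart, here or in any list below.

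Perineurial cells form the sheath of nerves with tight junctions. Of 8 genes tested on the perineurium list, 4 were higher in WT pool 1 (50%, against 3.32% of all genes tested) and 0 in WT pool 2. *Cldn1*, the tight junction claudin of the perineurium, had 298 and 161 reads (log2 ratio 0.90, interval 0.64 to 1.20). *Itgb4*, an integrin chain of perineurial and Schwann cells, had 1311 and 875 reads (0.60, interval 0.49 to 0.74). The 2 other members that differed were *Moxd1*, with 63 and 35 reads, and *Lypd2*, with 16 and 4. Outside the lists but among the genes with the largest ratios were *Podn*, a leucine-rich matrix proteoglycan (54 and 15 reads, 1.71), and *Adam33*, a metalloprotease of mesenchymal cells (67 and 20 reads, 1.61). *Scx*, the tendon transcription factor, was looked at after its values were seen and had 42 and 18 reads (1.19, interval 0.42 to 2.14).

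Fat genes differed for some members only. Of 27 adipocyte genes tested, 8 were higher in WT pool 1 (29.6%, against 3.32% of all genes tested) and 0 were higher in WT pool 2, with a median of 0.23. *Adipoq*, adiponectin, had 144 and 78 reads (log2 ratio 0.88, interval 0.51 to 1.33), *Cfd*, the serine protease adipsin, had 787 and 492 reads (0.68, interval 0.54 to 0.87), and *Car3*, carbonic anhydrase 3, abundant in adipocytes and in slow muscle, had 725 and 477 reads (0.61, interval 0.47 to 0.80). The others that differed were *Thrsp*, *Retn*, *Plin4*, *Lipe* and *Pck1*, with log2 ratios of 0.73, 0.71, 0.56, 0.55 and 0.53 (*Plin4* and *Pck1* 0.44 and 0.46 with a pseudocount of 1, short of the rule), and 22 of the 27 ratios were above 0. Some abundant genes of mature fat did not differ by the rule. *Fabp4*, the fatty acid binding protein of adipocytes, had 1260 and 1149 reads and *Plin1*, the coat protein of the lipid droplet, had 98 and 94.

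Glia and macrophage genes differed for few members. Of 16 satellite glia genes tested, 2 were higher in WT pool 1 (against 3.32% of all genes tested): *Fabp7*, a brain-type fatty acid binding protein, with 2109 and 1295 reads (log2 ratio 0.70, interval 0.63 to 0.83), and *S100b*, a calcium-binding protein, with 360 and 236 reads (0.62, interval 0.40 to 0.88). Of 16 Schwann cell and myelin genes tested, 12 had a ratio above 0 (median 0.14). In each pool 1 was higher (against 3.32% and 2.10% of all genes tested), which in a list this short is near that share. *Mag*, a myelin glycoprotein, was higher in WT pool 1 (127 and 90 reads, 0.50, not with a pseudocount of 1 or another scaling), *Egr2*, described with the immediate early genes, was higher in WT pool 2, and *Pmp22*, a membrane protein of peripheral myelin, had 5440 and 5797 reads. Of 21 macrophage genes tested, 2 were higher in each pool (against 3.32% and 2.10% of all genes tested). *Lyve1*, a hyaluronan receptor of vessel-associated macrophages and lymphatics, was higher in WT pool 1 with 84 and 31 reads (1.39, interval 0.86 to 2.11). *Pf4*, a chemokine of platelets and macrophages (80 and 49 reads), was also higher, while *Fcgr1*, a high-affinity antibody receptor (30 and 54), and *Ptprc*, the leukocyte surface protein CD45 (61 and 90), were higher in WT pool 2, *Ptprc* not with a pseudocount of 1 (-0.34). The complement gene *C1qa* had 469 and 378 reads and did not differ by the rule.

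**Figure D3:**
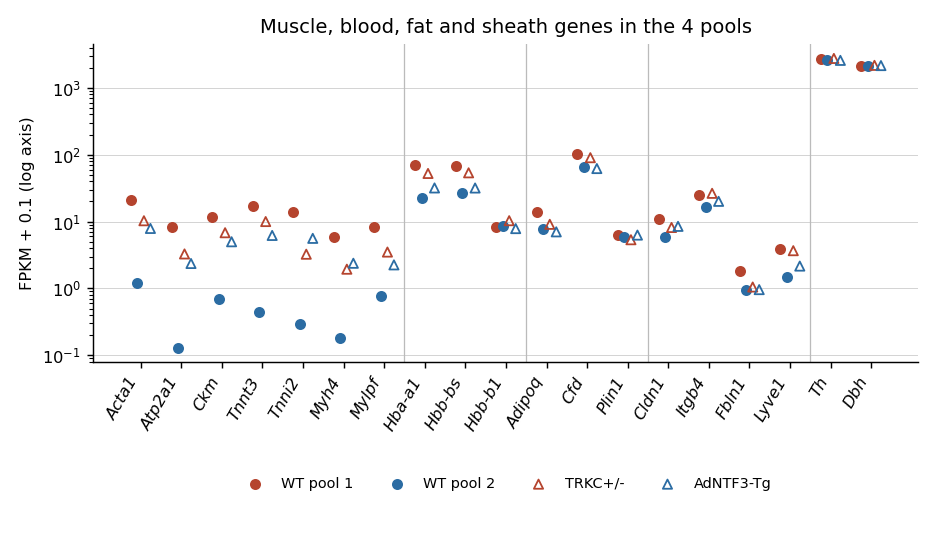
FPKM + 0.1 on a log axis of selected muscle, globin, fat, sheath and neuronal genes in the 4 pools, with 1 point per pool, circles for WT pools, open triangles for mutant pools, and colours by the cohort given in the table names. WT pool 2 sits lowest for the 7 fast muscle genes at the left, WT pool 1 highest, and the mutant pools between them, while *Th* and *Dbh* coincide in all 4.

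Genes of the interferon response were higher in WT pool 2. Interferons, released in viral infection and by activated immune cells, act through JAK kinases and STAT factors to induce a common group of antiviral genes. Of 43 interferon genes tested, 9 were higher in WT pool 2 (20.9%, against 2.10% of all genes tested) and 0 were higher in WT pool 1, with a median log2 ratio of -0.26. *Cxcl10*, a chemokine that attracts T cells, had 10 reads (1.08 FPKM) in WT pool 1 and 47 reads (5.05 FPKM) in WT pool 2, a log2 ratio of -2.13 (interval -3.35 to -1.20). *Mx1*, an interferon-induced gene that RefSeq lists as a transcribed pseudogene in this reference strain, had 16 and 55 reads (-1.60, interval -2.65 to -0.93). *Zbp1*, a sensor of Z-form nucleic acid, had 51 and 101 reads (-1.20, interval -1.47 to -0.46). In these genes WT pool 2 held from 1.94 to 4.60 times the reads per total of WT pool 1.

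The others that differed were *Rtp4* (57 and 99 reads), *Rsad2*, the antiviral protein viperin (90 and 149), *Iigp1* (78 and 128), *Irgm2* (182 and 268) and *Ifi47* (49 and 82), which encode interferon-induced GTPases, and *Oas1a*, an enzyme that makes oligoadenylate (76.3 and 111). With a pseudocount of 1, *Irgm2* and *Oas1a* fell short of the rule, at -0.47 and -0.45. The response was not raised throughout. *Isg15*, the ubiquitin-like modifier, had 119 and 130 reads and *Ifit1* 287 and 321 reads, and neither differed by the rule. Of 13 chemokine and cytokine genes tested, 2 were higher in WT pool 2 (against 2.10% of all genes tested) and 0 in WT pool 1, with a median of -0.11. These were *Ccl2*, a monocyte chemokine with 33 and 74 reads (-1.16, interval -1.77 to -0.52), and *Il1b*, the cytokine interleukin 1 beta with 4 and 18. Outside that list, the genes that differed included *Saa3*, an acute phase protein with 17 and 44, and *Timp1*, a metalloprotease inhibitor induced by inflammation with 85 and 179 (-1.07, interval -1.43 to -0.66). Beside them, the T cell gene *Cd8b1* had 0 and 5 reads, *Lck* had 3 and 9 and *Cd4* had 3 and 9, under the 20 reads needed for the comparison. The T cell list as a whole did not show that lean. Its reads summed to 135 and 158, with an interval of the log2 ratio from -0.54 to 0.14 that includes 0. Of its 2 members with enough reads, 0 had a ratio below 0.

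Many interferon genes carry an interferon-stimulated response element before their start, and its core was searched as GAAANNGAAA on both strands in the 250 bases before the start. It was found for 19 of the 30 interferon genes tested with a promoter in the table (63.3%), for 341 of the 10859 genes tested (3.14%), for 17 of 215 genes higher in WT pool 2 (7.91%) and for 10 of 338 genes higher in WT pool 1 (2.96%). The list holds genes known to carry this element, so its share is not a finding about the pools. The stretches around the match are shown for the 4 differing genes that had one, of 5 with a promoter in the table, with the core in capitals.
Cxcl10, chr5:92349050-92349139, minus strand: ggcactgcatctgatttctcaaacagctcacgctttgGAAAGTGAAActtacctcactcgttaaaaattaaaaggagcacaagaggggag
Rsad2, chr12:26456523-26456612, minus strand: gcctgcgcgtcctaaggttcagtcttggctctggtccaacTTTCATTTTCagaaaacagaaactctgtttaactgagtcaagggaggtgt
Oas1a, chr5:120907526-120907615, minus strand: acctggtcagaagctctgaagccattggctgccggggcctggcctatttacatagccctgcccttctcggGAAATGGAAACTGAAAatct
Irgm2, chr11:58214873-58214962, plus strand: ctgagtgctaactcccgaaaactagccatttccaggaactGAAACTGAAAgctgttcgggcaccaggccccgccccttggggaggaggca
*Oas1a* holds 2 overlapping cores, both in capitals. In *Rsad2* the core lies on the opposite strand, so that it reads there as its reverse complement.

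Immediate early genes, which neurons and other cells switch on within minutes of a stimulus, were higher in WT pool 2 for 5 of 29 tested (17.2%, against 2.10% of all genes tested) and higher in WT pool 1 for 1 (3.45%, against 3.32%). *Fos*, a component of the AP-1 factor, had 323 and 510 reads (log2 ratio -0.64, interval -0.83 to -0.43), *Fosb* had 21 and 46 reads (-1.0, interval -1.92 to -0.33), and *Junb* had 163 and 241 (-0.54, interval -0.83 to -0.24). *Socs3*, the feedback inhibitor of cytokine signalling, had 110 and 183 reads and *Egr2*, a zinc finger factor of Schwann cells and neurons, 8 and 20 (short of the rule with a pseudocount of 1, at -0.43). *Jun* (489 and 527), *Jund* (1191 and 1207) and *Egr1* (98 and 114) did not differ by the rule. The member that was higher in WT pool 1 was *Klf2*, a factor of endothelium and lymphocytes (128 and 80 reads, 0.68).

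Of 8 genes of the cholinergic neurons tested, 2 were higher in WT pool 2 (25%, against 2.10% of all genes tested) and 0 were higher in WT pool 1. *Vip*, vasoactive intestinal peptide, which cholinergic sympathetic neurons release, had 665 reads (51.9 FPKM) in WT pool 1 and 1122 reads (86.8 FPKM) in WT pool 2, a log2 ratio of -0.74 (interval -0.87 to -0.59). *Slc5a7*, the choline transporter, had 70 and 121 reads (-0.73, interval -1.21 to -0.32). *Chat*, choline acetyltransferase, had 10 and 20 reads, with an interval of -2.23 to 0.19 that includes 0, and *Slc18a3*, the vesicular acetylcholine transporter, had 90 and 96 reads. These 4 genes therefore did not all differ. Of the 8 tested, 5 had a ratio below 0 and 3 above it, with a median of -0.06. Those above 0 were *Gfra2* (918 and 764 reads), *Tac1* (78 and 68) and *Tbx20* (1270 and 1205), and none of them differed by the rule.

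**Figure D4:**
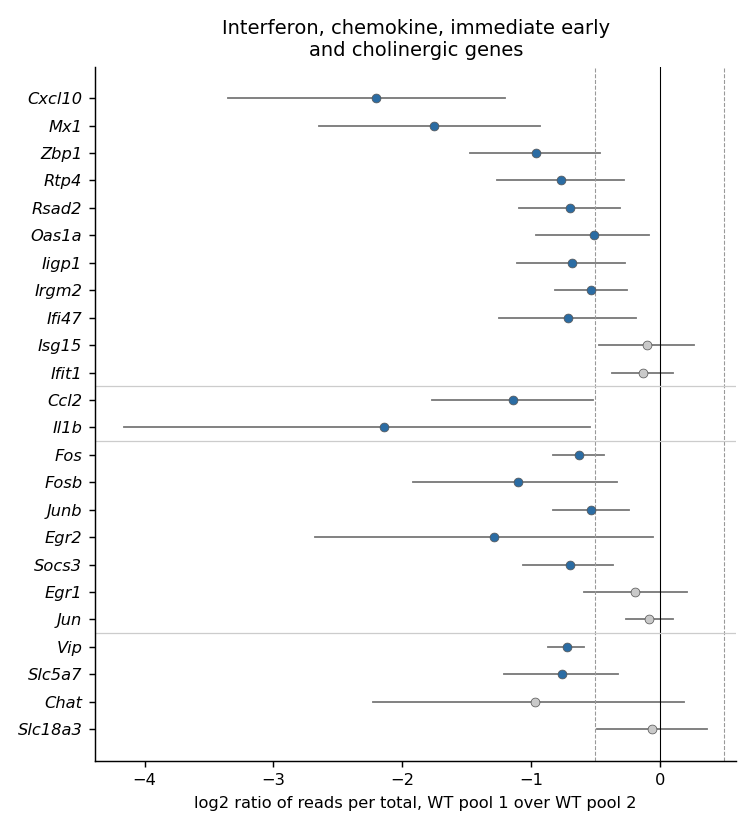
Log2 ratio of reads per total with its exact 95% counting interval for interferon, chemokine, immediate early and cholinergic genes, WT pool 1 over WT pool 2, in blue where higher in WT pool 2 and grey where the rule was not met. All plotted genes that met the rule lie left of the dashed line at -0.5, and *Isg15*, *Ifit1*, *Egr1*, *Jun*, *Chat* and *Slc18a3* have intervals that reach 0.

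Single genes of other kinds also differed. *Tgm1*, a transglutaminase that crosslinks proteins, had 8 reads in WT pool 1 and 43 in WT pool 2 (log2 ratio -2.12, interval -3.70 to -1.29). *Spp1*, the secreted phosphoprotein osteopontin, had 608 and 901 reads (-0.56, interval -0.69 to -0.39), and *Vmn1r181*, a vomeronasal receptor gene, had 14 and 43. In the other direction, *Gfra1*, a receptor for GDNF, had 161 and 78 reads (1.04, interval 0.68 to 1.48). Of 11 neurotrophin and GDNF genes tested it was the only 1 that differed (against 3.32% of all genes tested higher in WT pool 1). In a list this short, 1 such gene says little about the list. *Des*, the muscle filament protein desmin, which vessel walls also make, had 83 and 36 reads (1.18, interval 0.65 to 1.84), while *Acta2*, the smooth muscle actin, had 315 and 274. Of 33 axon growth genes tested, 1 was higher in WT pool 2 (against 2.10% of all genes tested) and 0 were higher in WT pool 1, with a median of -0.02. That gene was *Sox11*, a neuronal transcription factor (37 and 66 reads, -0.70), which fell short of the rule with a pseudocount of 1 (-0.32).

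Zinc finger genes named Zfp were noticed after values had been seen. These genes encode mostly DNA-binding repressors of transposable elements, in clusters of close copies. Of 319 tested, 29 were higher in WT pool 2 (9.09%, against 2.10% of all genes tested) and 7 higher in WT pool 1 (2.19%, against 3.32%), and 6 of the 20 largest ratios for WT pool 2 belonged to them. *Zfp758* had 45 and 106 reads (log2 ratio -1.18, interval -1.74 to -0.69) and *Zfp677* had 33 and 74 (-1.08, interval -1.77 to -0.52). Of the 29, 15 had counts that were not whole, as *Zfp984* (34.8 and 92.0 reads), so part of their reads was shared with other copies. The 28S ribosomal RNA gene *Rn28s1* was the gene of highest level among those that differed by at least 1 on the log2 scale, with 23272 reads (0.269% of the total) in WT pool 1 and 50679 (0.573%) in WT pool 2. It has no poly(A) tail of its own and was measured in RNA selected with oligo(dT).

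Several of the largest ratios fell on gene copies that share reads. *Tmem254c* had 597 reads in WT pool 1 and 66.5 in WT pool 2, while *Tmem254b* had 202 and 639 in the opposite direction. Over the 3 copies *Tmem254a*, *Tmem254b* and *Tmem254c* the sums were 850 and 771 reads. Counts of these copies were not whole, so some of their reads fit more than 1 copy and their single ratios are uncertain, and whether reads moved between copies was not tested. *Gm14308* had 73.3 and 0 reads, and *Apoo-ps*, a pseudogene, had 53.9 and 3.26. Of all genes tested 1061 had counts that were not whole, and 132 of the 743 that differed.

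*Arhgap6*, an X-linked gene for a GTPase activator, stood apart from the groups above. It had 84 reads (2.43 FPKM) in WT pool 1 and 7 reads (0.20 FPKM) in WT pool 2, a log2 ratio of 3.08 (interval 2.51 to 4.97), and its counts were whole. In the pool labelled TRKC+/- it had 110 reads and in the AdNTF3-Tg pool 9, a log2 ratio of 3.14 (interval 2.62 to 4.76). The 2 pools of 1 cohort, by the table names, were thus high and the 2 pools of the other low, whatever the genotype.

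The pools labelled TRKC+/- and AdNTF3-Tg share no sample with the WT comparison, so the same genes can be read in them, as the pool labelled TRKC+/- over AdNTF3-Tg. Genotype and cohort cannot be told apart in that ratio. Of the 13718 genes, 411 (3.0%) were higher in the pool labelled TRKC+/- and 311 (2.27%) higher in AdNTF3-Tg by the same rule. Among the 455 genes higher in WT pool 1, 62 (13.6%) were higher in the pool labelled TRKC+/- and 18 (3.96%) were higher in AdNTF3-Tg, with a median log2 ratio of 0.17. Among the 288 genes higher in WT pool 2, 34 (11.8%) were higher in AdNTF3-Tg and 14 (4.86%) higher in the pool labelled TRKC+/-, with a median of -0.08. The genes shared in direction made up 15.1% of those higher in the pool labelled TRKC+/- and 10.9% of those higher in AdNTF3-Tg.

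**Figure D5:**
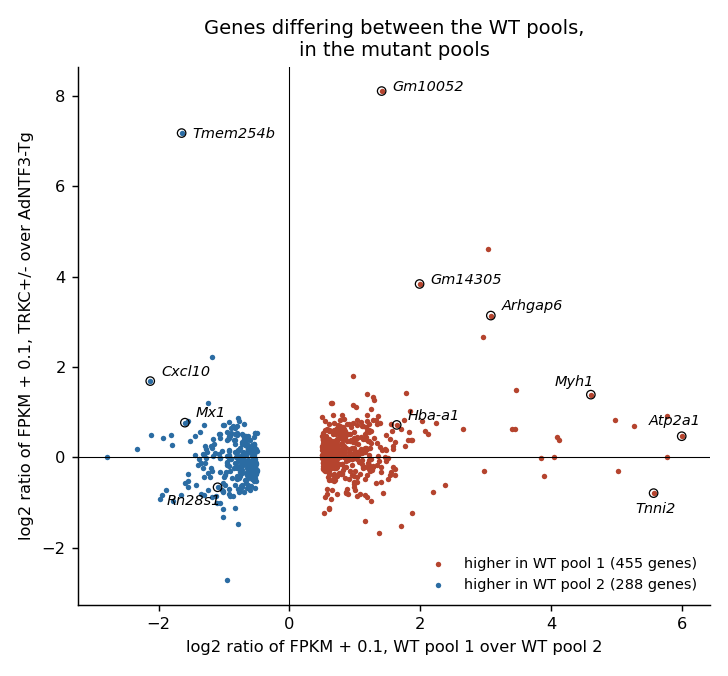
Log2 ratio between the mutant pools (the pool labelled TRKC+/- over AdNTF3-Tg) against the log2 ratio between the WT pools for the 743 genes that differed between the WT pools, 1 point per gene. *Arhgap6* and *Hba-a1* lie in the upper right, *Rn28s1* in the lower left, and *Cxcl10* and *Mx1* in the upper left. The points of *Tmem254b*, *Gm14305* and *Gm10052* rest on an AdNTF3-Tg value of 0 and depend on the added 0.1, and *Gm10052* was labelled after its values were seen.

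The 3 globin genes and some fat and matrix genes met the rule in the same direction in the mutant pools. *Hba-a1* had 237 reads in the pool labelled TRKC+/- and 140 in AdNTF3-Tg (log2 ratio 0.72, interval 0.44 to 1.06). *Lyve1* had 81 and 46 reads, and *Podn* 55 and 34. Of the 8 fat genes higher in WT pool 1, only *Cfd* (695 and 468 reads) and *Car3* (680 and 439) met it that way, *Pck1* met it the opposite way (40 and 96 reads, -1.23), and the median of the fat list was -0.05. *Gfra1* had 130 in the pool labelled TRKC+/- and 77 in AdNTF3-Tg. *Slc5a7* had 94 and 144 reads, and *Rn28s1* 27508 and 43007. *Vip*, in contrast, had 819 and 901 reads, a log2 ratio of -0.16 that does not reach 0.5.

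The fast muscle genes were intermediate in the mutant pools. The summed FPKM of the list was 98.0 in the pool labelled TRKC+/- and 73.3 in AdNTF3-Tg, against 168.0 and 33.1 in WT pool 1 and WT pool 2. Of the 24 genes tested, 23 had both mutant pools between the WT pools in reads per total, 5 were higher in the pool labelled TRKC+/- by the rule (against 3.0% of all genes tested) and 0 higher in AdNTF3-Tg (against 2.27%). *Acta1* had 129 and 97 reads, *Atp2a1* had 97 and 68, and *Tnni2* had 17 and 29. For these genes the distance between the WT pools was wider than the distance between the mutant pools.

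The interferon genes went the other way. Of the 43 tested, 15 were higher in the pool labelled TRKC+/- (against 3.0% of all genes tested) and 0 higher in AdNTF3-Tg (against 2.27%), with a median of 0.39, and 40 had a ratio above 0, whereas 35 had a ratio below 0 between the WT pools. *Cxcl10* had 48 reads in the pool labelled TRKC+/- and 14 in AdNTF3-Tg (log2 ratio 1.69, interval 0.88 to 2.74), which placed WT pool 2 and the pool labelled TRKC+/- high and WT pool 1 and AdNTF3-Tg low. *Mx1* had 41 and 23 reads, and *Isg15*, near equal between the WT pools, had 144 and 69. The summed FPKM of the list was 488.5 and 542.7 in WT pool 1 and WT pool 2, and 550.9 in the pool labelled TRKC+/- and 425.8 in AdNTF3-Tg.

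*Ucp1*, level between the WT pools, was low in 1 mutant pool, with 110 reads in the pool labelled TRKC+/- and 525 in AdNTF3-Tg. Other brown fat genes leaned the same way, with a list median of -0.57 and 15 of 17 ratios below 0. Of the 17, 7 were higher in AdNTF3-Tg (against 2.27% of all genes tested) and 0 higher in the pool labelled TRKC+/- (against 3.0%). *Th* had 41608 reads in the pool labelled TRKC+/- and 38338 in AdNTF3-Tg. Of the 28 sympathetic neuron genes tested 0 differed between the mutant pools (against 3.0% and 2.27% of all genes tested).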

How the data were processed

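RNA-seq was made from pooled T1–T4 SG of 6 mice per sample, with mRNA enriched by oligo(dT) and single-end reads. By the paper's methods, reads were filtered with SOAPnuke and mapped to mm9 with HISAT2. The submitters' processing notes name RSEM and mm10, so the build is uncertain and no gene position is given except for promoter windows (RefSeq, GRCm38.p6). Genes are listed by Entrez identifier. As deposited by the authors, each has an expected count, an estimate of its reads that is not normalized and is fractional where reads fit several genes (92.6% to 93.7% of values per pool were whole, within 0.001), and an FPKM value. Whether counting used strand is not given in the sources used here. A RefSeq table named 17619 of 17667 identifiers (99.7%).

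Samples were grouped by genotype label. Log2 ratios were computed from FPKM + 0.1 for genes with at least 20 reads over both WT pools. Exact Clopper-Pearson 95% intervals of the ratio of reads used expected counts rounded to whole numbers. These intervals, and the floor of 3 reads used as a bound, describe counting error and nothing else. A ratio on the log2(FPKM + 0.1) scale understates the change of low genes and can lie outside the interval of the read ratio. Genes were named by rule: the 20 largest ratios per direction among genes of 1 FPKM or more on average and 50 reads or more, list members that differed or were most abundant or were needed as scarce, and the 15 genes of highest mean FPKM. The genes, gene lists and comparisons were chosen with earlier results of these data known. Alternatives were other pseudocounts, filters, cutoffs and intervals, median centring, median-of-ratios size factors and TMM (edgeR 4.0.16, R 4.3.3) on rounded counts. Python 3.11.15, numpy 2.4.6, pandas 2.3.3 and scipy 1.17.1 were used. The method was tested on simulated data.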

Additional observations from a re-analysis of the deposited data

Results flagged for a closer look

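Genes named in the report whose ratio lay past the rule in opposite directions between the WT pools (WT pool 1 over WT pool 2) and between the mutant pools (the pool labelled TRKC+/- over AdNTF3-Tg) are listed here. The difference between the ratios was not tested, since each rests on 1 pool per side. *Cxcl10* had log2 ratios of -2.13 and 1.69. *Mx1* had -1.60 and 0.77. *Rtp4*, an interferon-induced receptor transporter, had -0.77 and 0.80, and *Irgm2* had -0.53 and 0.55. The macrophage gene *Fcgr1* had -0.79 and 0.88. *Pck1*, the enzyme of gluconeogenesis and of glyceride synthesis in fat, had 0.53 and -1.23. With a pseudocount of 1, *Irgm2* and *Pck1* did not meet the rule between the WT pools (-0.47 and 0.46). *Tmem254b* had -1.65 and at least 5.88 (against the floor of 3 reads, with 0 reads in AdNTF3-Tg), and it shares reads with 2 close copies.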

How the results depend on the processing

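No paired analysis was possible because only the WT group has 2 samples and each was set against the other, with 1 pool per side, and for the same reason no replicate could be left out. The count of genes higher in WT pool 1 and in WT pool 2, 455 and 288 as reported, was 298 and 184 with a pseudocount of 1, 257 and 187 with at least 100 reads, 154 and 73 with a cutoff of 1, 731 and 534 by fold alone and 193 and 124 with a stricter counting interval. It stayed within 1.5 times with the other alternatives tried. The genes shared in direction with the mutant pools, 62 and 34, were 41 and 17 with a pseudocount of 1 and 40 and 22 with at least 100 reads. The median of the fast muscle list, 2.82, was 1.37 with a pseudocount of 1, which shrinks ratios of low genes, 1.86 with no filter on reads and 4.10 with at least 100 reads, and from 2.76 to 3.47 under the others. The red blood cell list was reversed, from 1.11 to -0.04, with no filter on reads, which adds genes of few reads such as *Alas2* (3 and 4). The medians of the fibroblast, perineurium, adipocyte, interferon, immediate early and sympathetic neuron lists moved by less than the counting interval of a typical member. The medians of the remaining lists were not recomputed under the alternatives. TMM and size factors shifted ratios by 0.02 and 0.03. Of 118 named genes, 25 no longer met the rule with a pseudocount of 1 (of those in the text *Egr2*, *Hlf*, *Irgm2*, *Klf15*, *Oas1a*, *Otop1*, *Pck1*, *Plin4*, *Ptprc*, *Mag*, *Sox11* and 5 fast muscle genes), and 2 or 3 under each other scaling. Depth limits genes under about 20 reads, and 1 pool per side leaves mice and dissection unmeasured.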

Other observations

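Genes beside *Arhgap6* on the X chromosome, in the order of the RefSeq table, were looked at after its values were seen. *Msl3* had 157, 202, 187 and 145 reads in WT pool 1, WT pool 2, the pool labelled TRKC+/- and AdNTF3-Tg, and *Hccs* had 382, 315, 345 and 311. *Mid1*, the next gene, had 178, 322, 170 and 136. None of these neighbours had the pattern of *Arhgap6*, which had 84, 7, 110 and 9.

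Stress and daily rhythm genes were described by lists too. Of 17 glucocorticoid response genes tested, 5 were higher in WT pool 1 (29.4%, against 3.32% of all genes tested) and 0 in WT pool 2, among them *Zbtb16* (56 and 19 reads, log2 ratio 1.40) and *Klf15* (138 and 95 reads, 0.55, or 0.47 with a pseudocount of 1, short of the rule), while *Tsc22d3* had 1217 and 1067 reads. Of 20 clock genes, 2 were higher in WT pool 1 (10%, against 3.32%): *Nr1d1*, a repressor of the clock loop (597 and 417 reads, 0.53), and *Hlf* (54 and 29 reads, 0.83, or 0.42 with a pseudocount of 1). *Snhg14*, the host transcript of small nucleolar RNAs, was chosen after its values were seen and had 163 and 338 reads in the WT pools and 207 and 336 in the pools labelled TRKC+/- and AdNTF3-Tg.

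The median log2 ratio was 0.08 over the 898 genes of up to 1000 bases and -0.02 over the 2483 genes of 3000 to 4000 bases. Of the short genes 5.46% were higher in WT pool 1 and 1.67% higher in WT pool 2.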
